A study of Mus musculus with 6 samples.

Results

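The tripartite motif (TRIM) proteins are a family in which most members carry a RING domain, one or more B-boxes and a coiled coil, followed by a C-terminal part that sets the substrate. The RING domain recruits an E2 enzyme loaded with ubiquitin, and the E2 passes it to the protein held by the C-terminal part. Several TRIM genes are induced by type I interferon and act on viral capsids, on cytosolic antibody or on the sensors of viral RNA, while others act in chromatin, at the cytoskeleton or on RNA. The family was taken as every entry of the deposited expression data whose symbol begins with Trim and a digit, pseudogenes left out, which gave 54 of 24413 genes. Of these, 33 were measurable, meaning a mean of at least 1 FPKM (fragments per kilobase of gene scaled to library size) over the 6 libraries.

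RNA was sequenced from Tppp3+ cells of mouse Achilles tendon, from 3 male mice aged 12 weeks with the genotype Tppp3ECE/+;R26RtdT-CreERT2;ScxGFP, which both groups share and in which cells were sorted on tdT. The control group was kept in medium with 1% FBS for 24 h, and the other group for 24 h in conditioned medium (CM) from dorsal root ganglion (DRG) cultures. The ganglia came from lumbar levels of 3 male C57BL/6J mice aged 12 weeks and grew for 4 to 5 days with 5-fluoro-2-deoxyuridine and uridine at 20 µM, before a change to medium with 1% FBS, which was collected daily. Each group had 3 libraries, and no label ties a library to one mouse, so each p-value rests on variation among 3 libraries a group that could be technical in part. By the labels the groups differ in the medium, and whether the libraries came from separate mice is not given in the sources used here. The comparison addresses how gene expression in these tendon cells differs between the DRG medium and plain medium with 1% FBS. No medium conditioned by other cells was included, so products of the ganglia and conditioning in general cannot be told apart.

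Whole fragments could be recovered from the FPKM values, and gave 19177536 to 26570668 fragments per library. Of the tendon fibroblast markers, 9 of 10 were measurable (Col1a1 at 2618 to 3371 FPKM), while Tppp3 itself was below the limit at 0.724 to 1.12 FPKM. Of 12 macrophage and monocyte markers, 8 were in the data and 3 were measurable, with 0 passing the test (limma). Their summed level was 6.63 to 7.86 FPKM in control libraries, against 6.76 to 7.16 FPKM with conditioned medium. Within that sum Lyz2, the lysozyme of myeloid cells, had means of 2.68 and 1.79 FPKM without overlap between the groups (limma adjusted p = 0.083), while Cd14 (2.84 and 3.19 FPKM) and Cd68 (1.39 and 1.62 FPKM) had overlapping groups. Ptprc, found on all leukocytes, was at most 0.0093 FPKM in any library, Adgre1 at most 0.0353 and C1qa at most 0.0828. Of 6 endothelial markers 1 was measurable, Tek, which fell by 0.33 on the log2 scale, and summed levels were 5.76 to 6.55 FPKM in control libraries, against 4.43 to 4.87 with conditioned medium. Tek alone made up most of that sum (means of 5.90 and 4.50 FPKM), and Pecam1, Cdh5, Kdr, Vwf and Emcn were near 0, the highest being Kdr at 0.145 FPKM over all libraries. Of 6 glial markers 1 was measurable and did not pass (summed 3.00 to 3.57 FPKM, against 1.66 to 2.94), and of 9 neuron markers 5 were in the data and 0 measurable (1.17 to 1.52 FPKM, against 0.683 to 1.21). S100b carried most of the glial sum (2.42 and 1.50 FPKM, without overlap, limma adjusted p = 0.10) and Isl1 most of the neuron sum (0.849 and 0.586 FPKM). Below the limit, Fabp7 was lower (0.459 and 0.197 FPKM) and Cdh19 higher (0.0235 and 0.0544 FPKM), both without overlap. Of 7 skeletal muscle markers 3 were in the data and 2 measurable, with 0 passing. These were Acta1 (39.2 and 40.0 FPKM) and Tnnt3 (1.57 and 1.49 FPKM), both with overlapping groups. Of the 9 measurable tendon markers, 6 fell (Tnmd, Col1a1, Col1a2, Fmod, Thbs4 and Dcn), 0 rose and 3 did not pass. Over all genes tested, 2.49% were lower and 4.04% higher. Among those 3, Pdgfra was higher without overlap (means of 34.0 and 38.3 FPKM, limma adjusted p = 0.062). Scx was lower without overlap (13.2 and 11.5 FPKM, limma adjusted p = 0.073), and the groups of Mkx overlapped. The part of Lyz2, Tek, S100b, Isl1, the muscle markers and the tendon markers in the results below was not tested.

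With conditioned medium 8 of the 33 measurable TRIM genes rose and 1, Trim8, fell, while 24 did not pass (limma on log2 of FPKM + 1, Benjamini-Hochberg adjusted p below 0.05 over 11678 genes). Over all genes tested, 6.53% passed by the same rule, 4.04% higher and 2.49% lower. The genes that rose were Trim30a, Trim30d, Trim34a, Trim12c, Trim25, Trim21, Trim12a and Trim5. All 8 belong to a list of 15 TRIM genes known as interferon-inducible, of which 10 were measurable, and Trim26 and Trim56 did not pass. This list was drawn up with earlier results on interferon-inducible genes in these libraries known, so its count is not independent evidence of a direction. The median log2 fold change (conditioned minus control) was 0.032 over the 33 genes and 0.60 over the 10 listed ones, against 0.005 over all genes tested. A change that did not pass is not shown to be absent. In bulk RNA, more cells of a type and more RNA per cell cannot be told apart.

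**Figure D1:**
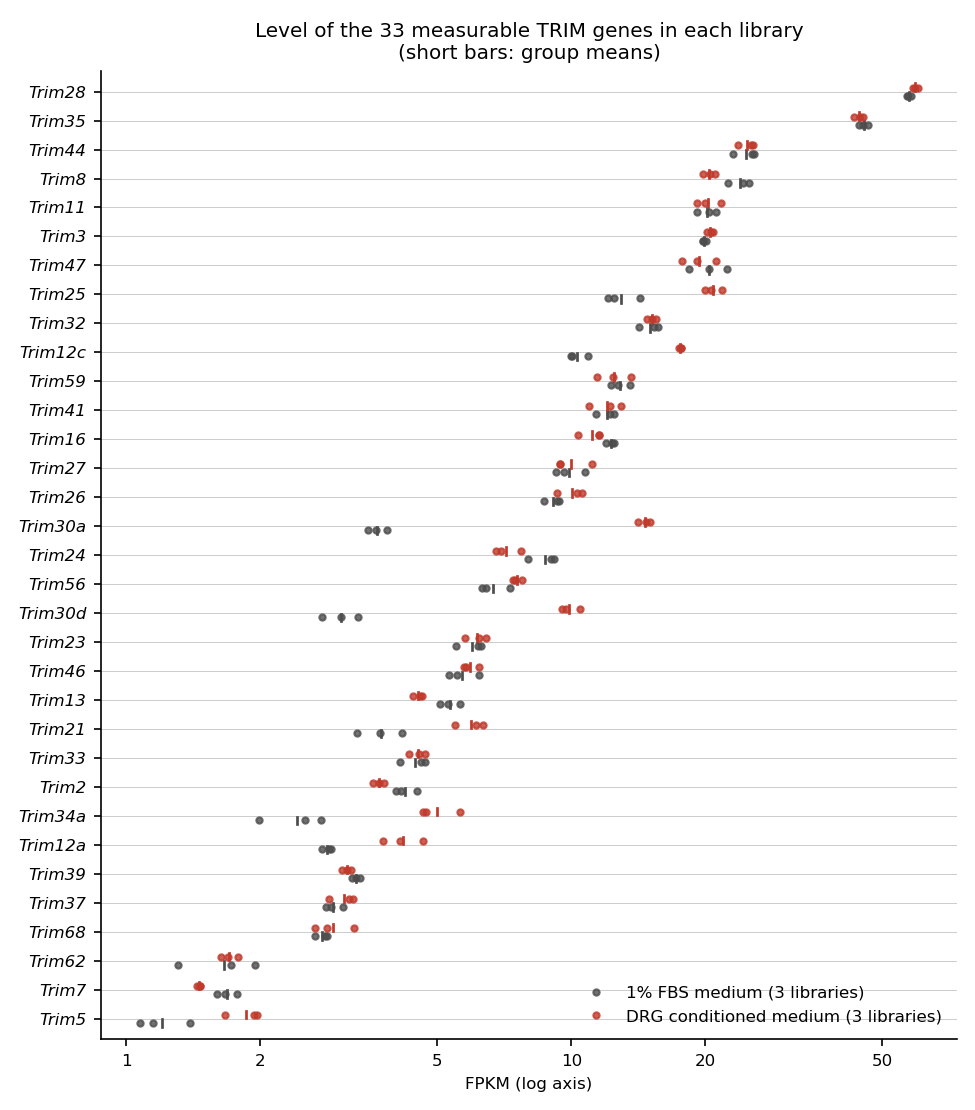
FPKM on a log axis for the 33 measurable TRIM genes, ordered by mean, with 1 point per library (grey, 1% FBS medium, red, DRG conditioned medium) and short bars for the group means. The wide gaps between the colours belong to Trim30a and Trim30d, and the top of the order, Trim28 at 56.9 to 60.1 FPKM, has its colours close together.

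Of the genes that rose, 7 lie on chromosome 7. The stretches that follow are shown because they carry a match to the core of the interferon-stimulated response element (ISRE), a DNA sequence found at many interferon-induced genes. The core was searched as GAAA, any 2 bases and GAAA again, on both strands, from 250 bases before to 50 after each RefSeq gene start (GRCm38.p6, the mm10 assembly). Each line gives 30 bases around a match, 5′ to 3′ on the strand of the gene, with the matched bases in capitals. The first 7 genes rose, and the last pair, Trim26 and Trim2, on other chromosomes, did not pass.
Trim30a: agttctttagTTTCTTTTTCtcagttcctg
Trim30d: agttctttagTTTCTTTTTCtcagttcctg
Trim12c: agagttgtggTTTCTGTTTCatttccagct
Trim12a: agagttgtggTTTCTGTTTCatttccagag
Trim5: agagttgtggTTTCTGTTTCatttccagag
Trim34a: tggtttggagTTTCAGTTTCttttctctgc
Trim21: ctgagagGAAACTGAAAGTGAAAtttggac
Trim26: cttccgaTTTCACTTTCCTTTTCtcgggcc
Trim2: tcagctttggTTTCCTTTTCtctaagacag

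The Trim30a and Trim30d stretches are identical over 30 bases, as are those of Trim5 and Trim12a, and the Trim12c stretch differs from the latter pair at 2 positions. Trim30a lies at chr7:104465210-104465239 (minus strand), Trim30d at chr7:104507871-104507900 (minus), Trim12c at chr7:104353359-104353388 (minus) and Trim12a at chr7:104315466-104315495 (minus). The Trim5 stretch is chr7:104288136-104288165 (minus), that of Trim34a chr7:104244457-104244486 (plus), that of Trim21 chr7:102565447-102565476 (minus) that of Trim26 chr17:36836979-36837008 (plus) and that of Trim2 chr3:84212791-84212820 (minus). Counted from the RefSeq start of each window, matches begin at -36 in Trim30a, -41 in Trim30d, -29 in Trim12c and -49 in Trim5. For Trim12a, Trim34a, Trim21 and Trim2 they begin within the first bases after that start. These starts can differ from the ends of the gene spans given below, and that of Trim2 lies inside the gene. Trim21 and Trim26 each hold 2 overlapping matches, those of Trim26 beginning at -160. A second start listed for Trim30a also has a match.

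Windows were found for 42 of the 54 family members. The core was present for 7 of the 8 genes that rose, Trim25 being the one without it in this window, and for 2 of the 19 measurable genes with a window that did not pass (Trim2, at 1 of its starts, and Trim26). It was present in 0 of 15 below the level limit, and Trim8 had no window in the sequence set. Over all tested genes with a window the share was 3.63%, and over all genes that rose it was 17.4% (62 of 356). The 7 include neighbours whose stretches are identical or nearly so, so they are not 7 independent matches to set beside those shares. A match is a run of letters, and no binding was measured.

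Trim30a (chr7:104409025-104465193) had the largest change of the family, and Trim30d (chr7:104470014-104507849), its neighbour, the next. Trim30a restrains signalling from Toll-like receptors to NF-kB. Its control libraries had 3.63, 3.49 and 3.86 FPKM and its conditioned libraries 14.7, 14.1 and 15.03 FPKM, so every conditioned library was far above every control one. The means were 3.66 ± 0.188 and 14.6 ± 0.447 FPKM (SD, n = 3), a ratio of 3.99 and a log2 fold change of 1.75 ± 0.05 SE (limma adjusted p = 1.1e-06, position 7 among all genes by p). Trim30d had 3.32, 2.75 and 3.03 FPKM in control and 10.47, 9.73 and 9.51 FPKM in conditioned libraries. Again the groups lay far apart, with a log2 fold change of 1.44 ± 0.07 SE (limma adjusted p = 1.2e-05). Of the Trim30a transcript sequence read as overlapping runs of 100 bases, 4.41% also occur in another annotated gene, all of them in Trim30d, so the split of fragments between both is uncertain over a small part. Trim30b, between Trim12c and Trim30a, was covered by 1 control and 2 conditioned fragments.

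Trim12c, Trim12a and Trim5 are mouse relatives of the primate gene TRIM5, whose protein binds retroviral capsids. Trim12c (chr7:104338754-104353362) was the highest of these, with 9.99, 10.9 and 10.0 FPKM in control and 17.6, 17.6 and 17.5 FPKM in conditioned libraries. Its conditioned values differed by a SD of only 0.0768 FPKM, and its log2 fold change was 0.72 ± 0.05 SE (limma adjusted p = 6.3e-05). Trim12a (chr7:104299894-104315466) had 2.89, 2.86 and 2.75 FPKM in control and 3.78, 4.12 and 4.65 FPKM in conditioned libraries. The groups did not overlap, and the log2 fold change was 0.43 ± 0.07 SE (limma adjusted p = 0.010). Trim5 (chr7:104263386-104288094) was the lowest measurable member, at 1.39, 1.15 and 1.07 FPKM in control and 1.97, 1.67 and 1.94 FPKM in conditioned libraries. It rose by 0.38 ± 0.09 SE (limma adjusted p = 0.040), a call that was lost in 7 of 12 alternatives, among them each that left out 1 library except control replicate 1 (adjusted p up to 0.15). On the fragment scale of voom, with no 1 FPKM added, the log2 fold change of Trim5 was 0.63. Between 3.29% and 11.7% of the transcript runs of these genes occur in other genes, the largest share in a neighbour of the group, so their single values are uncertain to that extent.

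Trim34a (chr7:104244457-104262234) belongs with the primate gene TRIM34, an interferon-induced relative of TRIM5. It had 2.53, 1.99 and 2.74 FPKM in control and 4.72, 4.63 and 5.64 FPKM in conditioned libraries. These do not overlap, with means of 2.42 ± 0.387 and 5.00 ± 0.556 FPKM and a log2 fold change of 0.81 ± 0.10 SE (limma adjusted p = 0.0024). Of its transcript runs, 39% occur in other genes and 21% in Trim34b, and an antisense gene overlaps 23.5% of its exon bases, so its value is uncertain to that extent. Trim34b was below the level limit, with 28 control and 54 conditioned fragments.

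Trim21 (chr7:102557921-102565486) encodes the cytosolic antibody receptor, which marks antibody-bound virus for the proteasome. It had 3.30, 3.73 and 4.16 FPKM in control and 6.32, 5.48 and 6.10 FPKM in conditioned libraries, again without overlap. The log2 fold change was 0.56 ± 0.08 SE (limma adjusted p = 0.0051). None of its transcript runs occurs in another annotated gene.

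Trim25 (chr11:88999376-89020293) encodes the ligase that attaches ubiquitin chains to the RNA sensor RIG-I, and it was the riser with the highest level. It had 14.3, 12.4 and 12.1 FPKM in control and 20.6, 20.0 and 21.8 FPKM in conditioned libraries. In control medium it lay below every library of Trim8, Trim11, Trim3 and Trim47 (18.4 to 25 FPKM), and with conditioned medium it lay in or next to their range (17.7 to 21.7 FPKM). Its log2 fold change was 0.65 ± 0.07 SE (limma adjusted p = 8.2e-04), from 5193 control and 7691 conditioned fragments.

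**Figure D2:**
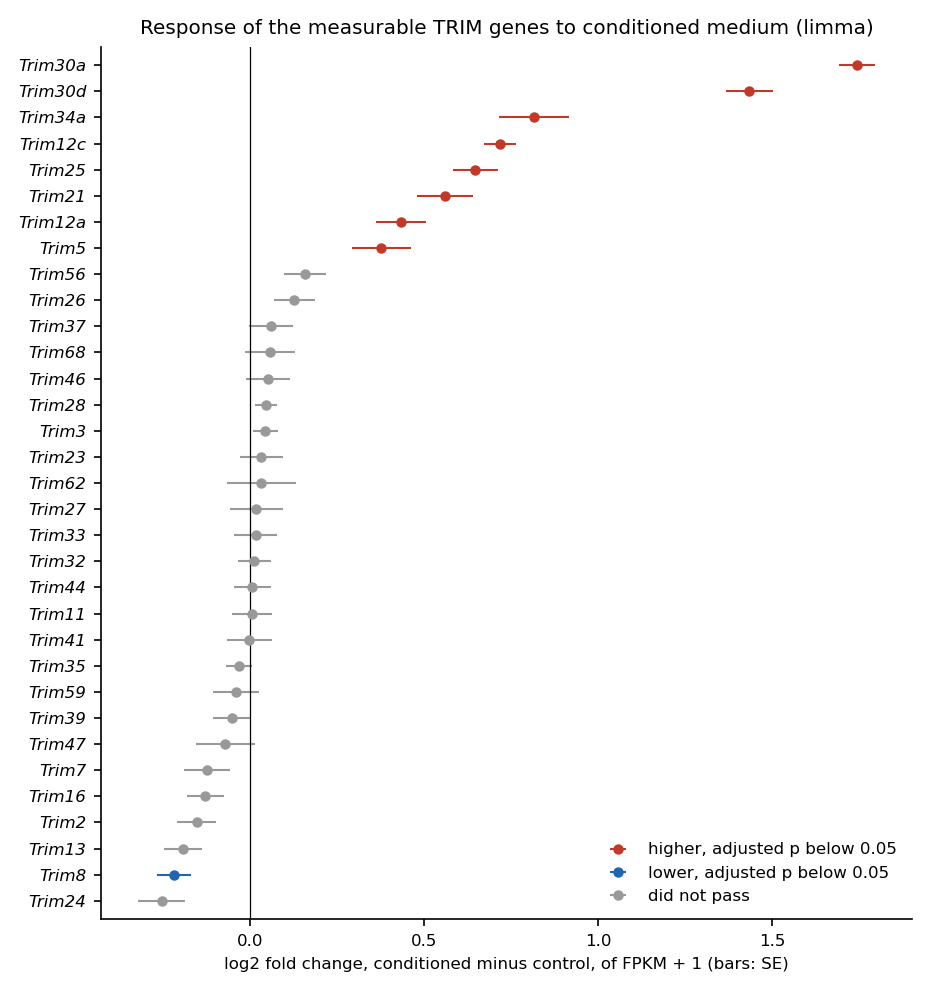
Log2 fold change (conditioned minus control, of FPKM + 1) with its standard error for the 33 measurable TRIM genes, coloured by the limma call. Trim30a (1.75) and Trim30d (1.44) stand to the right of the other 6 genes that rose (0.38 to 0.81), and 24 genes in grey lie between -0.25 and 0.16.

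Between the start of Trim6 and the end of Trim30d (chr7:104218793-104507849, 289.1 kb) lie 9 family members of the data, of which 6 were measurable, and all 6 rose. Trim6, Trim34b and Trim30b were below the level limit, and Trim6 was covered by 98 control and 75 conditioned fragments. Trim30c, annotated in the stretch, had no entry in the deposited data. The other 4 genes of the stretch in the data were pseudogenes, an antisense RNA and a small nuclear RNA, with 0 measurable, and Gm16464, inside the Trim30d span, had 32 and 87 fragments. Trim21 lies 1653 kb before Trim6. Trim68, between both, ranged over 2.65 to 2.82 FPKM in control medium, against 2.66 to 3.26 FPKM with conditioned medium, which overlap. Trim3, 1097 kb after Trim30d, had a log2 fold change of 0.04, which did not pass (limma adjusted p = 0.58). Its groups did not overlap either (19.7, 19.8 and 20.1 FPKM in control and 20.8, 20.6 and 20.1 FPKM in conditioned libraries). In all, 7 of 10 measurable members on chromosome 7 rose, and 1 of 23 on other chromosomes did. Over all genes tested, 4.04% were higher. The 1 of 23 is near that share, so it is no result about the members on other chromosomes. Of the 7 on chromosome 7, 6 are neighbours in the stretch, and some share transcript sequence, so they are not 7 independent genes.

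**Figure D3:**
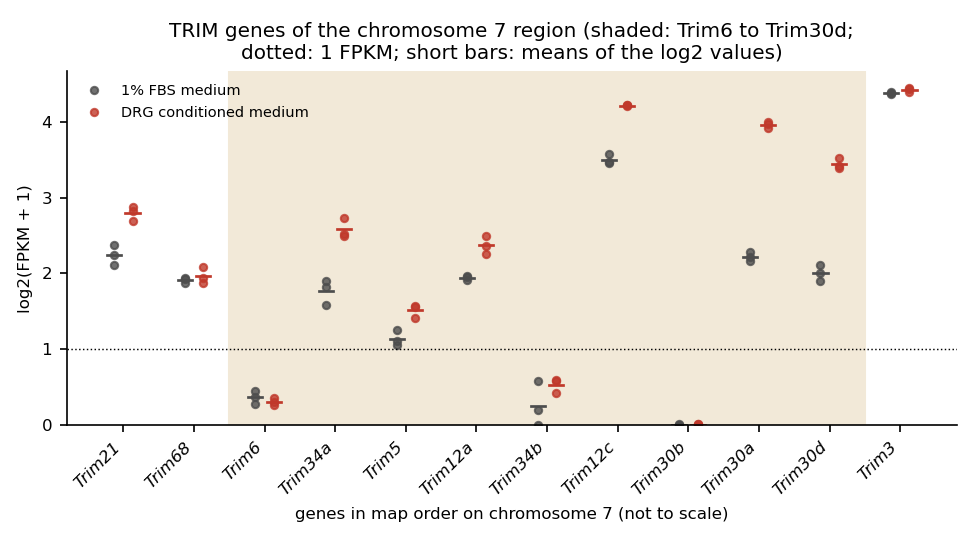
Level, as log2(FPKM + 1), of 12 TRIM genes in map order on chromosome 7, with 1 point per library and short bars for means of log2 values. In the shaded stretch (Trim6 to Trim30d), the 6 genes above the dotted line (1 FPKM) have every conditioned point above every control point. The same holds for Trim21 and Trim3 on the sides of the stretch, while the groups of Trim68 overlap. Trim68 and Trim3 have log2 fold changes of 0.06 and 0.04.

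Among TRIM genes with other roles in innate sensing, Trim56 had 6.43, 7.30 and 6.30 FPKM in control and 7.76, 7.46 and 7.42 FPKM in conditioned libraries. These did not overlap, but the log2 fold change of 0.16 ± 0.06 SE did not pass (limma adjusted p = 0.20). Trim26 had 8.68, 9.29 and 9.37 FPKM in control and 10.3, 9.29 and 10.6 FPKM in conditioned libraries, which overlap (0.13 ± 0.06 SE, limma adjusted p = 0.28). Trim8 encodes a ligase that acts in NF-kB and cytokine signalling, and it was the one member that fell. It had 22.5, 24.3 and 25.0 FPKM in control and 21.0, 19.8 and 20.5 FPKM in conditioned libraries. The log2 fold change was -0.22 ± 0.05 SE (limma adjusted p = 0.037), a call that was lost in 7 of 13 alternatives, among them each that left out 1 library except control replicate 1 (adjusted p up to 0.15).

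The chromatin readers with a PHD finger and a bromodomain had 0 of 3 passing in limma. Of these, 1, Trim24, had an unadjusted p below 0.05 and passed by voom, the test run on recovered fragments. Over the 11678 genes tested, voom called 701 higher and 435 lower. In limma, 2048 genes had an unadjusted p at or below the 0.039 of Trim16, a member described below. Counts of 1 in a small class, here and below, are no result about the class. Trim24, a coregulator of nuclear receptors, had 9.17, 7.98 and 9.001 FPKM in control and 6.76, 6.95 and 7.71 FPKM in conditioned libraries. The groups did not overlap and the log2 fold change, -0.25 ± 0.07 SE, was the lowest of the family, yet it did not pass (limma adjusted p = 0.071). Trim28, the corepressor recruited by KRAB zinc finger proteins, was the most abundant member. It had 56.9, 57.1 and 58.1 FPKM in control and 59.1, 58.5 and 60.1 FPKM in conditioned libraries, without overlap. The log2 fold change of 0.05 ± 0.03 SE did not pass (limma adjusted p = 0.49). Trim33, which acts on SMAD signalling, ranged over 4.12 to 4.68 FPKM in control medium, against 4.33 to 4.69 FPKM with conditioned medium.

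Of the 3 measurable NHL-repeat members, 0 passed in limma, with 1, Trim2, at an unadjusted p below 0.05 and passing by voom. Of all 11678 genes tested, voom called 701 higher and 435 lower. Trim2 had 4.49, 4.15 and 4.04 FPKM in control and 3.80, 3.58 and 3.70 FPKM in conditioned libraries. Its groups did not overlap, and its log2 fold change of -0.15 ± 0.06 SE did not pass (limma adjusted p = 0.18). Trim3 and Trim32 had log2 fold changes of 0.04 and 0.01. Among members with other C-terminal parts, Trim13, which is anchored in the endoplasmic reticulum, had 5.64, 5.29 and 5.08 FPKM in control and 4.62, 4.57 and 4.41 FPKM in conditioned libraries. Every conditioned library was below every control one, with a log2 fold change of -0.19 ± 0.05 SE (limma adjusted p = 0.085). Trim46, the one measurable member with a COS box, which binds microtubules, had a log2 fold change of 0.05 (limma adjusted p = 0.73), and 6.3% of its exon bases overlap Krtcap2 on the opposite strand. Trim44, which lacks a RING domain, had 25.8, 25.4 and 23.1 FPKM in control and 25.3, 23.6 and 25.5 FPKM in conditioned libraries, which overlap almost fully.

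The 10 measurable PRY-SPRY members outside the interferon list had 0 passing in limma, with 1 (Trim16) at an unadjusted p below 0.05 and 0 by voom. Of all 11678 genes tested, 2048 had an unadjusted limma p at or below the 0.039 of Trim16. Voom called 701 of them higher and 435 lower. With 1 FPKM added, the log2 fold changes of these PRY-SPRY members were -0.13 to 0.06. Trim35, the next most abundant after Trim28, had 46.5, 44.3 and 45.2 FPKM in control and 44.5, 45.3 and 43.1 FPKM in conditioned libraries. Trim11 had 19.1, 21.1 and 20.4 FPKM in control and 21.7, 20.0 and 19.2 FPKM in conditioned libraries. In both genes the groups overlap. Trim16, a member without a RING domain, had 12.5, 12.0 and 12.4 FPKM in control and 11.6, 10.3 and 11.5 FPKM in conditioned libraries (-0.13 ± 0.05 SE, limma adjusted p = 0.23). Trim7 had 1.60, 1.67 and 1.78 FPKM in control and 1.45, 1.46 and 1.47 FPKM in conditioned libraries (-0.12 ± 0.07 SE, limma adjusted p = 0.36), without overlap. On the fragment scale of voom, with no 1 FPKM added, the log2 fold change of Trim7 was -0.20 (voom adjusted p = 0.27). Trim47 had 18.4, 20.4 and 22.4 FPKM in control and 21.2, 19.1 and 17.7 FPKM in conditioned libraries, which overlap.

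Beyond the 8 largest of the 24 changes that did not pass, the remaining 16 had absolute log2 fold changes of at most 0.060 and adjusted p-values of at least 0.49, at mean levels of 1.68 to 58.3 FPKM. The groups did not overlap for 18 of the 33 measurable genes (11 higher, 7 lower), against 26.0% of all genes tested (14.3% higher, 11.6% lower). Summed over the 33 genes, control libraries reached 376.6 to 376.7 FPKM, against 404.5 to 418.7 FPKM with conditioned medium. The 8 genes that rose made up 10.4% to 11% of that sum in control and 19.1% to 20% in conditioned libraries. Measurable TRIM genes varied between libraries with a median coefficient of variation of 5.29% in control and 4.62% in conditioned medium, beside 6.14% and 5.11% over all genes tested.

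The other 21 members were below the level limit, 12 of them with a mean below 0.1 FPKM. Trim45 (0.943 FPKM) and Trim65 (0.792 FPKM) lay just outside the limit, with Trim5 (1.53 FPKM) and Trim7 (1.57 FPKM) the nearest inside it. All 33 measurable members had a mean of at least 1 FPKM in both groups, so 0 passed through 1 group alone. Trim38, an interferon-inducible regulator of sensing, was covered by 5 control and 17 conditioned fragments, with no overlap between the FPKM values. Trim14, on the same list, had 17 and 26 fragments, and 31.3% of its exon bases overlap the gene Nans on the opposite strand. Trim72, a muscle membrane repair protein, had 0 fragments in the control libraries together, which allows up to 3 by counting error alone, and 9 in the conditioned ones. Trim63, the muscle ligase MuRF1, had 8 and 10 fragments, and Trim71, known from stem cells, 69 and 70. With no limit on the level, 0 of the 21 passed in limma (2 at an unadjusted p below 0.05, Trim72 and Trim38, lowest adjusted p = 0.096).

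Of TRIM relatives known under other names, 3 were measurable. Pml, the organiser of nuclear bodies, had 18.4, 18.4 and 18.4 FPKM in control and 23.1, 23.0 and 22.2 FPKM in conditioned libraries. It rose by 0.29 ± 0.04 SE (limma adjusted p = 0.0027), with all conditioned libraries above all control ones. Mid1, a microtubule-bound ligase, had 6.96, 7.15 and 6.86 FPKM in control and 6.35, 5.34 and 6.19 FPKM in conditioned libraries (-0.20 ± 0.07 SE, limma adjusted p = 0.13), and did not overlap. Its paralogue Mid2 had 5.06, 4.41 and 3.98 FPKM in control and 4.24, 3.67 and 4.60 FPKM in conditioned libraries, with overlap.

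Among partners of these ligases, 14 of 17 listed genes of nucleic acid sensing were in the data, all measurable. Of the 14, 3 rose, 0 fell and 11 did not pass, with a median log2 fold change of 0.051. Over all genes tested, 4.04% were higher and 2.49% lower. Ddx58, the sensor RIG-I that is a substrate of Trim25, went from 15.04 ± 0.689 to 26.5 ± 0.454 FPKM (log2 fold change 0.78 ± 0.04 SE, limma adjusted p = 3.3e-05). The related sensor Ifih1 went from 3.03 ± 0.132 to 7.08 ± 0.0869 FPKM (limma adjusted p = 1.9e-05). Irf7, a transcription factor that drives interferon genes, went from 6.09 ± 0.173 to 21.3 ± 0.932 FPKM (limma adjusted p = 1.1e-06). Among those that did not pass, Tmem173 (STING) had 19.5 ± 1.01 and 20.2 ± 2.62 FPKM and Tab2 had 21.3 ± 1.35 and 22.5 ± 1.10 FPKM, both with overlapping groups.

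Of 12 measurable ubiquitin E2 enzymes, 1 rose and 11 did not pass (median 0.011), a share near the 6.53% of all genes tested, so the count is no result about the E2 enzymes as a group. The one was Ube2l6, the E2 of ISG15, at 8.48, 8.002 and 9.17 FPKM in control and 14.2, 13.95 and 14.6 FPKM in conditioned libraries (0.68 ± 0.05 SE, limma adjusted p = 2.2e-04). Ube2d2a, an E2 that many RING ligases use, had 37.2 ± 1.12 and 38.5 ± 2.00 FPKM (limma adjusted p = 0.64). Ube2n, which builds K63-linked chains, had 21.1 ± 0.365 and 19.8 ± 0.306 FPKM, without overlap (limma adjusted p = 0.23).

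Of 8 ligases outside the family that serve the interferon system, 4 rose and 4 did not pass (median 0.22). Over all genes tested, 4.04% were higher. The count and the median include Herc6, whose mean was below 1 FPKM in control medium. Rnf213 went from 7.28 ± 1.10 to 17.9 ± 0.562 FPKM (limma adjusted p = 2.9e-04) and Dtx3l from 5.37 ± 0.601 to 11.1 ± 0.475 FPKM (limma adjusted p = 2.0e-04). Rnf114 went from 11.3 ± 0.653 to 13.6 ± 0.682 FPKM (limma adjusted p = 0.039). Herc6 went from 0.678 ± 0.145 to 1.79 ± 0.213 FPKM (limma adjusted p = 0.0035), and it was measurable through the conditioned libraries alone. Rbck1, a subunit of the linear ubiquitin ligase, had 17.2 ± 0.697 and 19.2 ± 0.890 FPKM (limma adjusted p = 0.13).

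**Figure D4:**
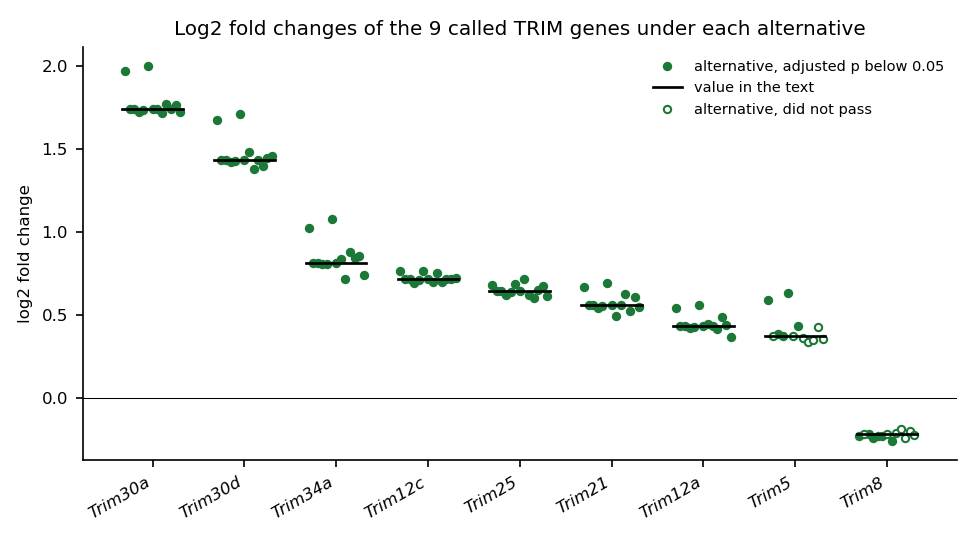
Log2 fold changes of the 9 called TRIM genes (horizontal lines) and their values under each alternative way of processing (filled points, adjusted p below 0.05, open points, did not pass). Trim30a, Trim30d, Trim34a, Trim12c, Trim25, Trim21 and Trim12a have filled points alone, and Trim5 and Trim8 have 7 open points each.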

How the data were processed

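The 6 poly-A selected libraries were paired-end. Named without a role, per the submitters' processing notes, are HISAT2 2.0.5, CASAVA and mm10. No counting program, annotation release or strand setting is given in the sources used here. The authors deposited FPKM values. For 24413 of 24413 genes these were whole multiples of 1 fragment in every library (tolerance 0.0001 fragment), and the divisors followed the libraries' median-of-ratios size factors, so the deposited values already carry that scaling.

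Values were analysed as log2(FPKM + 1) with limma 3.58.1 in R 4.3.3 (trend, robust prior, two-sided, no covariate) for the 11678 genes whose mean reached 1 FPKM. P-values were adjusted over those genes by the Benjamini-Hochberg method. A fold change on this scale understates changes of low genes. The fit was tested on simulated data. Recovered fragments served for depth and for voom with trimmed-mean scaling. The floor of 3 fragments named for Trim72 covers counting error only, while each SD and SE holds variation between libraries. Coordinates come from GENCODE M21 (mm10), promoter windows from RefSeq (GRCm38.p6). A second motif searched in those windows is not reported here.

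Full values are given for members that passed, the 5 most abundant, the 8 largest changes that did not pass, measurable genes of the interferon list and the TRIM relatives, while partner genes that passed, and some of the most abundant others, are given as means. The members and lists were chosen with earlier results of these data known. Protein sequences were not used here. Python 3.11.15, pandas 2.3.3 and matplotlib 3.10.9 were used.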

Additional observations from a re-analysis of the deposited data

How the results depend on the processing

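Over 13 alternatives, Trim30a, Trim30d, Trim12c, Trim25, Trim21, Trim34a and Trim12a kept their direction and passed in each, with Trim12a closest to the threshold (adjusted p up to 0.049). Trim30a ranged from 1.72 to 2.00 and Trim30d from 1.38 to 1.71, highest by voom. The count of TRIM genes that rose was 7 or 8. The count that fell, 1, became 0 with no low filter and 3 by voom, where Trim24 and Trim2 passed as well (-0.28 and -0.19 on the log2 scale, with adjusted p = 0.0076 and 0.025). Leaving out 1 library gave 7 to 8 higher and 0 to 1 lower TRIM genes. Over all genes, 472 higher and 291 lower became 327 and 165 with no low filter, 701 and 435 by voom, and 394 and 361 with quantile normalization, and leaving out 1 library gave 265 to 426 higher and 129 to 250 lower. TRIM calls were 8 and 1 under quantile normalization. The cause was not tested.

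Same-numbered libraries of the groups did not deviate together (r = -0.095, -0.0080 and -0.048). With 3 libraries a group, such values cannot exclude that libraries of the same number share a mouse, so the pairing stays unknown. With a replicate block, 7 TRIM genes were higher and 0 lower, and over all genes 259 and 131.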
